A study of Mus musculus with 30 samples.

Results

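Peripartum cardiomyopathy is heart failure that begins towards the end of pregnancy or soon after delivery. In mice it follows when the transcription factor STAT3 is missing from heart muscle cells: the lysosomal protease cathepsin D is then more active and cleaves the hormone prolactin into a fragment that harms small vessels. Vascular endothelial growth factors (VEGFs) keep the capillaries of the heart alive, and FLT1 is a VEGF receptor whose soluble form, made in quantity by the placenta, traps VEGF and PGF. Neuregulin 1, released by endothelial cells, acts on ERBB4 receptors of heart muscle cells and favours their survival. The transcripts of 8 of these factors are described here: the ligands Vegfa, Vegfb and Pgf, the receptor Flt1, the protease gene Ctsd, Stat3, the receptor gene Erbb4 and its ligand gene Nrg1. They were chosen by name for their place in this disease, with earlier results of these data known and by no threshold on their values, and all 8 were found by Ensembl ID among the 78258 genes of the postpartum study and among the 56691 genes of the diet study. Their IDs are ENSMUSG00000023951 (Vegfa), ENSMUSG00000024962 (Vegfb), ENSMUSG00000004791 (Pgf), ENSMUSG00000029648 (Flt1), ENSMUSG00000007891 (Ctsd), ENSMUSG00000004040 (Stat3), ENSMUSG00000062209 (Erbb4) and ENSMUSG00000062991 (Nrg1).

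The hearts came from mice with the p.S55L mutation of CHCHD10, a mitochondrial protein, and from wild-type (WT) mice. In the postpartum study the groups were S55L PP, S55L naive, WT PP and WT naive, where PP stands for mice bred at 65 days of age and killed on postpartum day 0, and naive for mice aged to 100 days. In the diet study every mouse was S55L and postpartum (day 0) and had been fed either the EH301 diet or the control diet during breeding. EH301 is a supplement of pterostilbene and the NAD precursor nicotinamide riboside. Each group was deposited as 5 columns of counts, but identical columns reduced the distinct libraries to 4 in S55L PP and 4 in WT PP, beside 5 in S55L naive and 5 in WT naive. One column was deposited under both diets and was left out, which left 4 libraries of the EH301 diet and 4 of the control diet. The labels give neither the zygosity of the mutation nor the pregnancy history of the naive mice. Nor do they tie every library to its own mouse, and p-values therefore rest on the spread among libraries, which may be technical. Libraries keep the number of their title, as in S55L PP 5.

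Counts come from the 3′ ends of polyadenylated transcripts. They are summed per gene, and so do not separate soluble from membrane-bound Flt1 or one Nrg1 isoform from another. Which transcript ends were counted for a gene depends on the annotation, which is not given in the sources used here. Nor do the counts read the mutated codon of Chchd10. Reads on genes numbered 2755500 to 4157372 per library in S55L PP, 3369420 to 5131316 in S55L naive, 1897249 to 2949993 in WT PP and 1418715 to 2307283 in WT naive. The share of reads on genes was 67.8% to 68.5% in S55L PP and 66.3% to 69.2% in S55L naive, against 59.0% to 61.6% in WT PP and 58.3% to 61.5% in WT naive. Multi-mapped reads took 17.5% to 19.97% in S55L PP and 18.4% to 21.2% in S55L naive, against 24.9% to 27.3% in WT PP and 24.7% to 27.3% in WT naive. Both shares separate the genotypes completely, and their part in the genotype results was not tested. The diet study had 1141997 to 3048461 under EH301 and 466651 to 2982870 under the control diet. Levels are counts-per-million (CPM) values relative to the reads on genes after scaling between libraries, and are compared for one gene across libraries, not between genes. A gene was called changed at a Benjamini-Hochberg adjusted p under 0.05 in the edgeR quasi-likelihood test over all 11945 tested genes of the postpartum study or 10335 of the diet study.

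Between genotypes, Vegfa and its receptor gene Flt1 were lower and the protease gene Ctsd and Stat3 were higher in S55L hearts, both after delivery and in naive mice. In S55L PP against WT PP, Vegfa, Vegfb and Flt1 fell and Ctsd and Stat3 rose, which is 5 of the 7 members that could be tested. In S55L naive against WT naive, Vegfa and Flt1 fell and Ctsd and Stat3 rose, which is 4 of 7. The background was high: 31.5% of all tested genes were called in the postpartum comparison (16.3% higher and 15.2% lower) and 43.5% in the naive comparison (21.9% higher and 21.6% lower), so a call by itself sets no member apart from the many other genes that differed. Before adjustment, a p under 0.05 was reached by 6 members after delivery, beside 41.4% of all genes, and by 4 in naive mice, beside 50.8%. The libraries of the groups did not overlap for 3 of the 7 tested members in each comparison, beside 25.4% of all tested genes after delivery and 32.2% in naive mice. In bulk tissue, fewer cells of a type and less RNA per cell cannot be told apart.

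**Figure D1:**
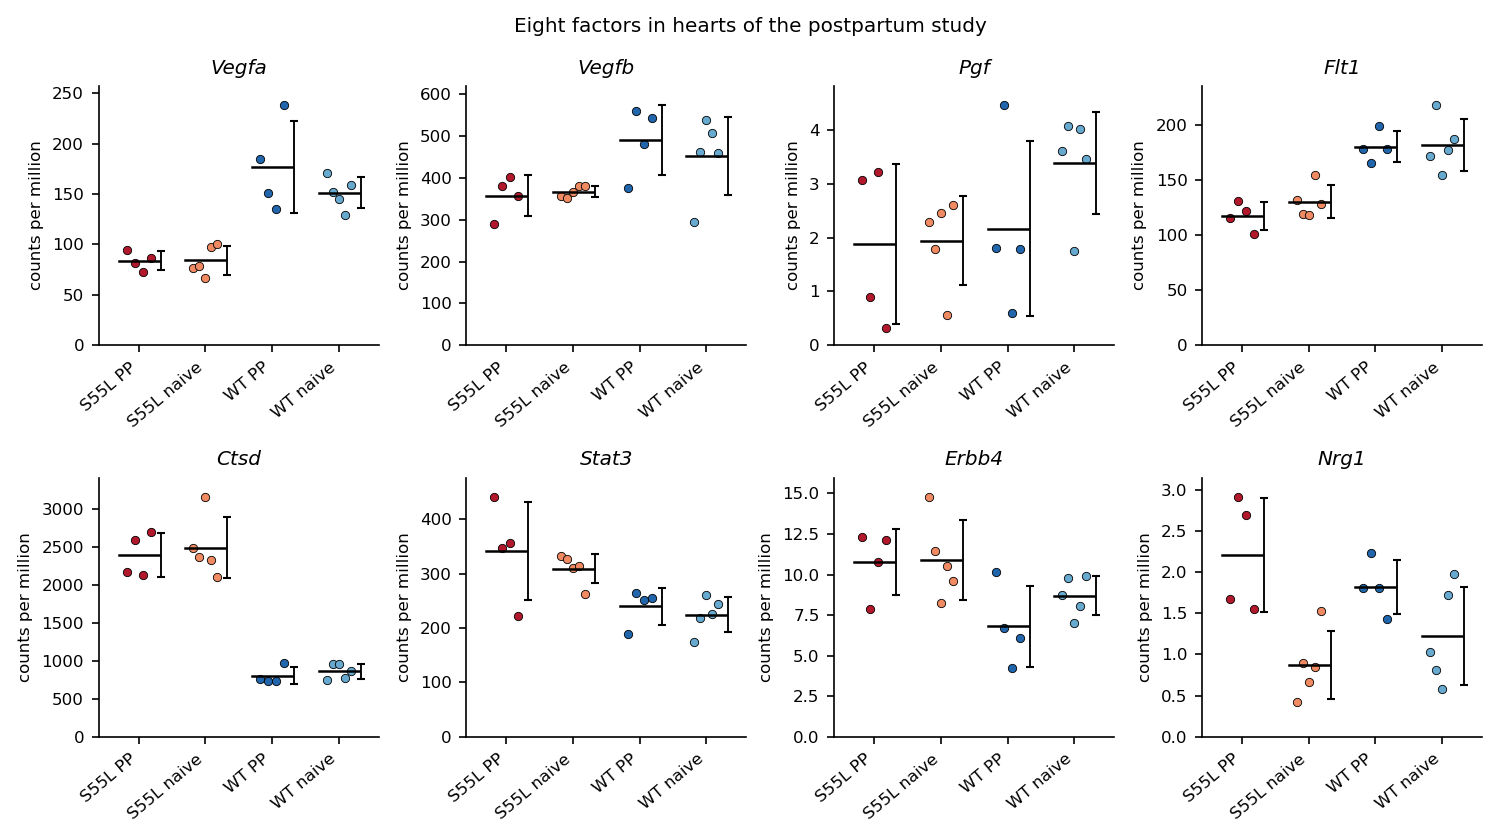
CPM of the 8 factors in each library of the postpartum study (points), with group mean (horizontal bar) and SD (vertical bar), n = 4 for S55L PP and WT PP and n = 5 for S55L naive and WT naive. Vegfa lay between 66.9 and 99.9 CPM in S55L hearts and between 129 and 238 CPM in WT hearts, while Ctsd lay between 2101 and 3159 CPM in S55L hearts and between 736 and 974 CPM in WT hearts.

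The sequences just before the start sites of Ctsd, Flt1 and Vegfa are shown because these are the 3 members whose libraries did not overlap between S55L PP and WT PP. Each is the 250 bases before the RefSeq start (GRCm38.p6), 5′ to 3′ on the gene's strand; for Vegfa, with more than 1 start in the table, the outermost was taken. Capitals mark CACGTG in Ctsd, an E-box known to be bound by TFEB, a regulator of lysosomal genes, and TGACGTCA in Flt1, the element of CREB-type factors.
Ctsd promoter, chr7:142387828-142388077, minus strand: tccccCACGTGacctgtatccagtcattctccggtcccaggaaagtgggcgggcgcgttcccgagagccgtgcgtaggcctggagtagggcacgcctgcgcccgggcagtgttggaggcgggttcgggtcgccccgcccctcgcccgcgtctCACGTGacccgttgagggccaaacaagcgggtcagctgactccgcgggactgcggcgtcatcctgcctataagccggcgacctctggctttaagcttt
Flt1 promoter, chr5:147726012-147726261, minus strand: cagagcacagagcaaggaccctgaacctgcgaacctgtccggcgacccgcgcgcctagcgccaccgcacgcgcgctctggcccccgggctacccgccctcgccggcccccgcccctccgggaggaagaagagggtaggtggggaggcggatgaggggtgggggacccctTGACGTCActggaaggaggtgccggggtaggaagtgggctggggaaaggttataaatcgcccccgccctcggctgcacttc
Vegfa promoter, chr17:46032378-46032627, minus strand: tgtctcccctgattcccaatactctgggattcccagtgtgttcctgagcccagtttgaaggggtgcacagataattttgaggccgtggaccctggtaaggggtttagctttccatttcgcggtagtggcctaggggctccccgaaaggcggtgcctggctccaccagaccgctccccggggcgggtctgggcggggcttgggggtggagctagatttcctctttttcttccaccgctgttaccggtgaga

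The motifs were chosen with these sequences in view and searched on both strands. CACGTG begins 245 and 98 bases before the Ctsd start, and 6.04% of 27025 promoter windows of the same length hold it. Among the windows of 18 other genes of the lysosomal list described below 5 held it (27.8%). TGACGTCA begins 81 bases before the Flt1 start, and 1.6% of windows hold it. The cores of the hypoxia response element, ACGTG and GCGTG, occur in 16.5% and 28.3% of windows. ACGTG was found in Ctsd alone among the members, where it overlaps CACGTG, and GCGTG in Ctsd, Flt1, Vegfb and Pgf. No match of these motifs, nor of the STAT element TTCNNNGAA (7.14% of windows), lies in these windows of Vegfa, Stat3 and Erbb4. Windows were available for 7 members, all but Nrg1. A match is a string of letters, not evidence of binding.

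Vegfa encodes the main growth and survival factor of endothelial cells and is made in the heart largely by heart muscle cells. Its level was 94.7, 81.8, 72.4 and 86.0 CPM in the 4 S55L PP libraries, against 185, 151, 135 and 238 CPM in the 4 WT PP libraries. In naive hearts it was 76.7, 79.0, 66.9, 97.8 and 99.9 CPM in S55L, against 170.5, 152, 145, 129 and 159 CPM in WT. No S55L library reached the lowest WT library, at either time. Vegfa fell by 1.09 on the log2 scale in S55L PP against WT PP (standard error, SE, 0.17, adjusted p = 1.53e-05) and by 0.85 in S55L naive against WT naive (SE 0.15, adjusted p = 6.40e-05).

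Flt1 encodes VEGF receptor 1, which endothelial cells carry on their surface and also release in soluble form. The 4 S55L PP libraries held 116, 131, 122 and 101 CPM of Flt1, against 178.5, 165, 199 and 178 CPM in WT PP, and these ranges did not overlap. The 5 S55L naive libraries held 132, 119, 118, 155 and 129 CPM, against 172, 218, 154, 177 and 187 CPM in WT naive. Here the groups met at S55L naive 4, the highest of its group, and WT naive 3, the lowest of its group. Flt1 fell by 0.62 in S55L PP (SE 0.14, adjusted p = 0.00142) and by 0.48 in S55L naive (SE 0.13, adjusted p = 0.00351). Both calls were lost when libraries were scaled by total counts, where the difference was −0.34 after delivery (adjusted p = 0.0577) and −0.23 in naive mice (adjusted p = 0.146). The naive call was also lost with no filter on low counts (−0.35, adjusted p = 0.105). With the well code's column number as a term the naive difference was −0.46 and did not pass. In naive mice that number goes with the genotype, so this fit cannot tell them apart.

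Vegfb encodes a ligand of VEGF receptor 1 that is made in heart muscle. Vegfb stood at 290.1, 382, 402 and 356 CPM in S55L PP, against 377, 561, 481 and 544 CPM in WT PP. In naive hearts it stood at 356, 352, 366, 380.1 and 382 CPM in S55L, against 296, 461, 538, 508 and 459 CPM in WT. The S55L and WT ranges overlapped at both times, in naive mice through WT naive 1 alone. The fall in S55L PP (−0.46, SE 0.17, adjusted p = 0.0366) passed the test, and the difference in naive mice (−0.30, SE 0.15, adjusted p = 0.104) did not. The postpartum call was lost in 6 of the 8 fits that left out 1 library, with differences from −0.56 to −0.37 over all 8 (adjusted p 0.0141 to 0.112). Without WT naive 1 the naive difference was −0.42 and passed (adjusted p = 0.0147). S55L PP 1, WT PP 1 and WT naive 1, whose well codes lie in row A, were the lowest Vegfb libraries of their groups, and they also had the most reads on no gene of their groups (9.62%, 9.90% and 10.1%). The counts of S55L PP 1 and WT PP 1 were also deposited under row B, so their row is not settled. The part of this in the result was not tested.

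Pgf encodes placental growth factor, another ligand of VEGF receptor 1, and was near the limit of detection. It had 11, 4, 12 and 1 reads in S55L PP, against 5, 8, 1 and 5 reads in WT PP, and 2 to 12 reads in S55L naive, against 3 to 7 reads in WT naive. In CPM the means were 1.88 ± 1.49 in S55L PP, 1.94 ± 0.83 in S55L naive, 2.17 ± 1.63 in WT PP and 3.38 ± 0.948 in WT naive (SD). The genotype difference was −0.18 after delivery (95% interval −1.36 to 1.01, adjusted p = 0.845) and −0.75 in naive mice (95% interval −1.74 to 0.24, adjusted p = 0.217), so a difference was not detectable at this depth.

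Ctsd encodes cathepsin D, the aspartic protease of lysosomes. Its difference was the largest of the 7 tested members in both genotype comparisons. The 4 S55L PP libraries held 2165.7, 2586, 2131 and 2692 CPM of Ctsd, against 762, 736, 736 and 974 CPM in WT PP. The 5 S55L naive libraries held 2489, 2360.0, 3159, 2322 and 2101 CPM, against 743, 963, 959, 776 and 859 CPM in WT naive. The lowest S55L library had more Ctsd than the highest WT library at both times. Ctsd rose by 1.58 in S55L PP against WT PP (SE 0.16, adjusted p = 1.68e-08) and by 1.53 in S55L naive against WT naive (SE 0.14, adjusted p = 2.31e-09). A predicted gene, Gm49369, covers the 3′ end of Ctsd on the same strand in the annotation used for names. It had 0 counts in every library, and how reads shared by both genes were counted is not given in the sources used here.

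Stat3 encodes a transcription factor activated by cytokines that signal through gp130. It read 441, 347, 356 and 223 CPM in S55L PP, against 189, 265, 251 and 255 CPM in WT PP. In naive hearts it read 331, 326.5, 310.2, 314 and 263 CPM in S55L, against 174, 219, 259.7, 225 and 244 CPM in WT. The naive groups did not overlap, while S55L PP 5 lay below 3 of the 4 WT PP libraries. Stat3 rose by 0.51 in S55L PP (SE 0.17, adjusted p = 0.0245) and by 0.46 in S55L naive (SE 0.16, adjusted p = 0.0182). The postpartum call was lost without WT PP 1, S55L PP 1, S55L PP 3 or S55L PP 4, when the values were 0.42, 0.37, 0.51 and 0.49 (adjusted p 0.0897, 0.0982, 0.0510 and 0.0501). The naive call was lost without WT naive 1 (0.38, adjusted p = 0.0604). Stat5a, on the opposite strand, covers the 3′ end of Stat3. Since the strand setting of the counting is not given in the sources used here, reads of both genes may not be fully separated. Stat5a itself had 38 to 111 reads per library.

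Erbb4 encodes a receptor for neuregulins. Its level was 12.3, 7.86, 10.8 and 12.2 CPM in S55L PP, against 10.2, 6.70, 4.23 and 6.10 CPM in WT PP. In naive hearts it was 14.8, 11.4, 8.25, 10.5 and 9.59 CPM in S55L, against 8.76, 9.80, 7.02, 8.03 and 9.90 CPM in WT. The groups overlapped at both times, and neither difference passed the test: 0.61 after delivery (SE 0.26, adjusted p = 0.0779) and 0.33 in naive mice (SE 0.24, adjusted p = 0.263). The postpartum difference passed without WT PP 1 (0.90, adjusted p = 0.0216), without S55L PP 3 (0.75, adjusted p = 0.0467) and without the 2 libraries that were deposited in 2 columns (0.83, adjusted p = 0.0442). With the replicate number of the titles as a block, Erbb4 had a difference of 0.65 (adjusted p = 0.0447), which made 6 called members in place of 5. The labels do not state that same-numbered libraries are pairs.

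Nrg1 encodes neuregulin 1. With 1 to 13 reads per library of the postpartum study it did not pass the filter on low counts. S55L PP held 6, 13, 10 and 5 reads (1.68, 2.92, 2.69 and 1.56 CPM), against 5, 4, 3 and 4 reads in WT PP (1.81, 2.23, 1.81 and 1.43 CPM). S55L naive held 2, 5, 3, 3 and 7 reads (0.417, 0.893, 0.669, 0.853 and 1.53 CPM), against 2, 1, 1, 3 and 4 reads in WT naive (1.03, 0.816, 0.585, 1.72 and 1.98 CPM). At these counts no genotype difference was detectable, and with no filter the difference was 0.40 after delivery (SE 0.57) and −0.40 in naive mice (SE 0.64).

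**Figure D2:**
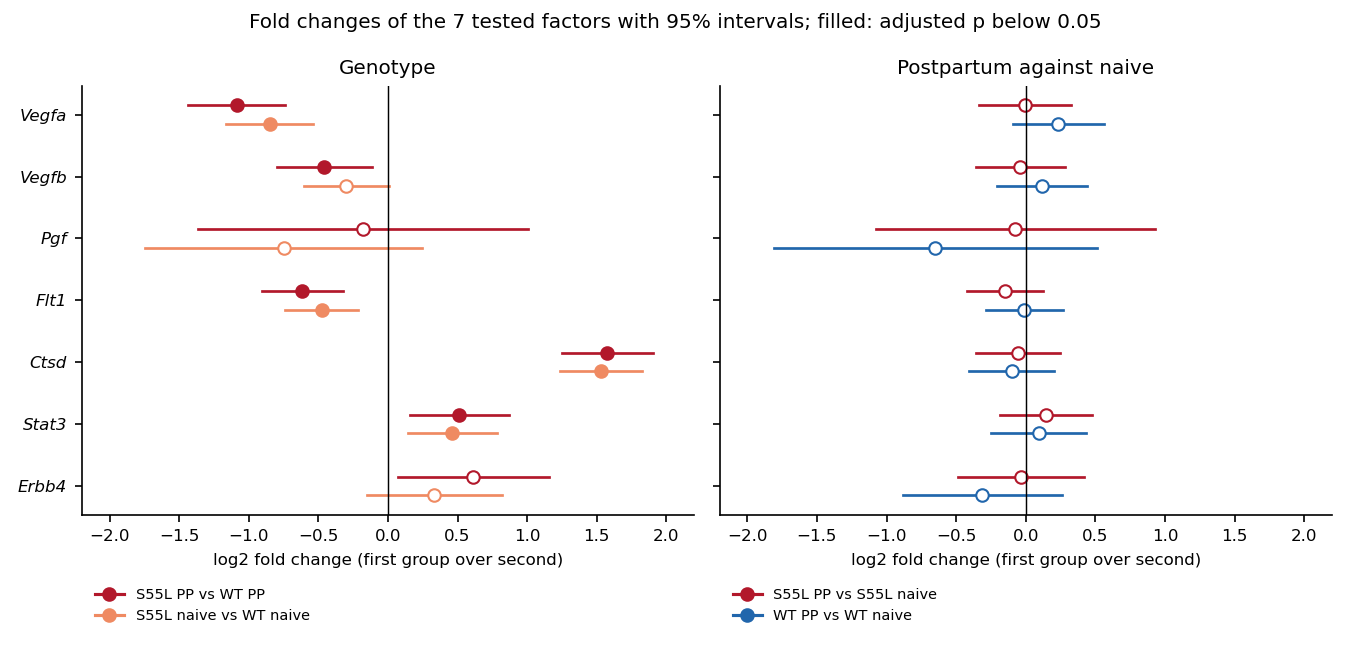
Log2 fold changes of the 7 tested factors (points) with 95% intervals (lines), for genotype on the left and for PP against naive on the right, where filled points passed an adjusted p of 0.05. Vegfa and Flt1 lie left of 0 and Ctsd and Stat3 right of 0 in both genotype comparisons, and every point of the right panel is open.

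Ordered by group mean, Vegfa ran from S55L PP (83.8 ± 9.28 CPM) and S55L naive (84.1 ± 14.3 CPM) to WT naive (151 ± 15.5 CPM) and WT PP (177 ± 45.6 CPM). Ctsd ran the other way, with S55L naive at 2486 ± 401 CPM and S55L PP at 2394 ± 287 CPM, against 859.8 ± 101 CPM in WT naive and 802 ± 115 CPM in WT PP. In both cases the neighbours within a genotype overlapped and the S55L groups stood clear of the WT groups. Flt1 averaged 117 ± 12.7 CPM in S55L PP and 130.5 ± 14.7 CPM in S55L naive, against 180.2 ± 14.1 CPM in WT PP and 182 ± 23.5 CPM in WT naive. Stat3 averaged 342 ± 90.1 CPM in S55L PP and 309 ± 27.1 CPM in S55L naive, against 239.7 ± 34.6 CPM in WT PP and 224 ± 32.4 CPM in WT naive. Errors are SD over the 4 or 5 libraries of a group.

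The well codes in the deposited column names follow the groups closely. WT libraries have column number 1 except WT PP 1, S55L naive libraries have 2, and S55L PP libraries have 3 except S55L PP 5, which has 2. Among libraries with number 2, S55L PP 5 stood at 86.0 CPM of Vegfa and S55L naive at 66.9 to 99.9 CPM, against 185 CPM in WT PP 1. For Ctsd, S55L PP 5 stood at 2692 CPM and S55L naive at 2101 to 3159 CPM, against 762 CPM in WT PP 1. With the column number as a term in the fit, S55L PP against WT PP rests on S55L PP 5 and WT PP 1. No other libraries of these groups share a number. The differences of Vegfb and Stat3 were then −0.08 and 0.24. In naive mice the genotypes share no column number, so well position and genotype cannot be told apart there. The term takes its shift between numbers 1 and 2 from WT PP 1 alone. That fit therefore cannot show whether a call holds.

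A ratio of reads within a library needs no scaling between libraries. There were 0.722 ± 0.132 Vegfa reads for each Flt1 read in S55L PP (0.819, 0.623, 0.594 and 0.852), against 0.992 ± 0.276 in WT PP (1.04, 0.916, 0.676 and 1.34). In naive hearts the ratio was 0.644 ± 0.0832 in S55L (0.582, 0.662, 0.567, 0.632 and 0.776), against 0.841 ± 0.128 in WT (0.991, 0.697, 0.939, 0.728 and 0.852). The ranges overlapped at both times. Vegfa and Flt1 were both lower in S55L, Vegfa by more, and the means of the ratio were lower in S55L.

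**Figure D3:**
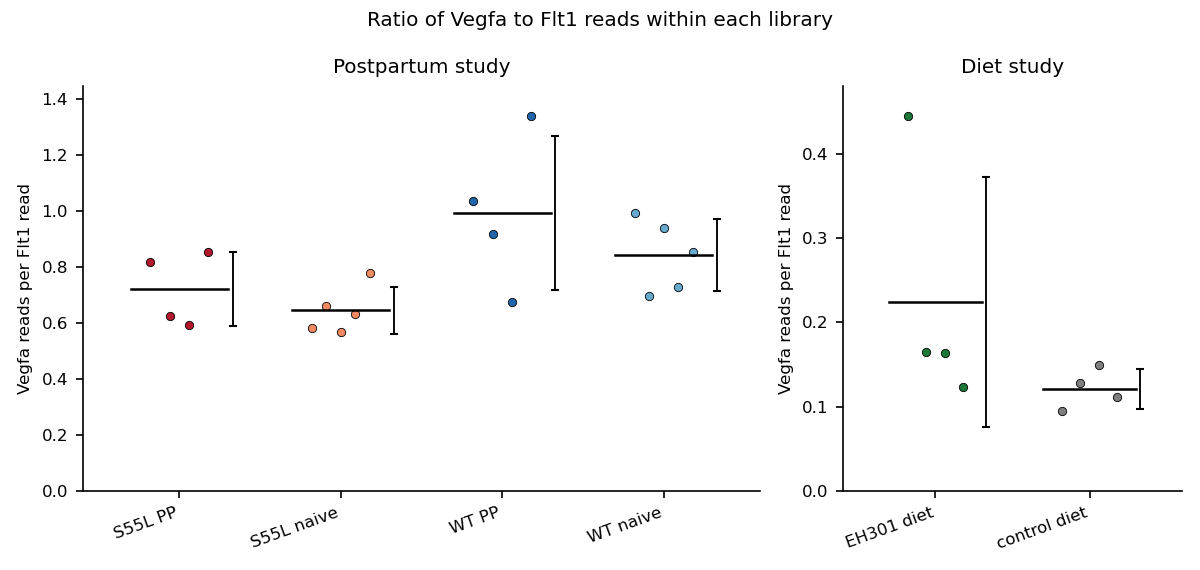
Vegfa reads per Flt1 read in each library (points) with group mean and SD (bars), in the postpartum study on the left and in the diet study on the right. In the postpartum study S55L libraries lie between 0.567 and 0.852 and WT libraries between 0.676 and 1.34. In the diet study, where every library is S55L, the ratio runs from 0.0943 in control diet 1 to 0.445 in EH301 diet 7, which stands apart. The studies are not compared for level.

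Around the VEGF members, 19 of 20 other genes of the VEGF and angiopoietin pathway were tested, and most that passed fell. In S55L PP against WT PP, 4 fell and 1 rose, with a median of −0.50 beside a median of −0.00068 over all genes. In S55L naive against WT naive, 8 fell and none rose, with a median of −0.42 beside −0.0039. With libraries scaled by total counts, which moves the median of all genes to 0.27 after delivery and 0.24 in naive mice, 2 fell and 1 rose in S55L PP and 4 fell in S55L naive. For this list and those below, the counts stand beside 16.3% of all tested genes that rose and 15.2% that fell in S55L PP. In S55L naive these shares were 21.9% and 21.6%. A count near these shares does not set a list apart. Angpt1, whose product angiopoietin 1 stabilises vessels through the receptor TIE2, fell to 3.11 CPM in S55L PP, against 19.8 CPM in WT PP (−2.60, SE 0.31, adjusted p = 1.93e-07), and to 4.79 CPM in S55L naive, against 26.2 CPM in WT naive (−2.47, SE 0.25, adjusted p = 1.17e-08). Apln, the ligand of the apelin receptor, fell to 4.48 CPM in S55L PP, against 17.7 CPM in WT PP (−1.95, SE 0.34, adjusted p = 7.51e-05). It also fell in S55L naive (−0.84, SE 0.30, adjusted p = 0.0262). Vegfd, a ligand best known from lymphatic vessels, rose in S55L PP (1.28, SE 0.30, adjusted p = 0.00173). In naive mice Plcg1, a signalling enzyme downstream of VEGF receptors, and Tie1, an endothelial receptor, fell (−1.07 and −1.02, SE 0.17 and 0.21, adjusted p = 1.26e-05 and 3.00e-04). Kdr, the main signalling receptor of VEGF, chosen after its values were seen, had 200.5 CPM in S55L PP and 250.3 CPM in WT PP, and its difference of −0.32 did not pass (adjusted p = 0.167).

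Of 15 tested endothelial markers 5 fell in S55L PP and 6 in S55L naive, and none rose, beside 15.2% and 21.6% of all genes that fell. With total counts 1 and 4 fell. Fewer also fell with the column number of the well code as a term, a fit that cannot separate column from genotype. Tie1, Tek, Kdr and Eng are in this list and in the VEGF and angiopoietin list, so that Tie1 and Tek, which fell in S55L naive, count in both. The 16 markers of the endothelial list summed to 1216 to 1923 CPM in S55L PP and 1426 to 1738 CPM in S55L naive. The sums were 1980 to 2374 CPM in WT PP and 2153 to 2441 CPM in WT naive, and no marker was at 0. Fabp4 and Cd36 weigh most, with 736 and 599 CPM of a mean sum of 2328 CPM in WT naive. Of the tested endothelial markers, 10 were not called in S55L PP and 9 in S55L naive. Pecam1, Cdh5, Emcn, Vwf and Sox17 were among these both times, so the lower sum does not show a fall of all endothelial markers. Cardiomyocyte markers fell too, 10 of 12 in S55L PP and 11 of 12 in S55L naive. Their sum was 40963 to 53095 CPM in S55L PP and 48077 to 65146 CPM in S55L naive, against 81654 to 105961 CPM in WT PP and 81162 to 109940 CPM in WT naive. The part of these shifts in the lower Vegfa, Vegfb and Flt1 was not tested.

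The list of genes that regulate Vegfa or respond to low oxygen was split, with 17 genes tested. In S55L PP against WT PP, 5 rose and 4 fell (median −0.21), and in S55L naive against WT naive, 6 rose and 7 fell (median −0.32). Atf4, which encodes a factor that cells switch on under amino acid or mitochondrial stress, rose to 255 CPM in S55L PP, against 62.5 CPM in WT PP (2.02, SE 0.20, adjusted p = 1.76e-08), and to 297 CPM in S55L naive, against 46.1 CPM in WT naive (2.68, SE 0.19, adjusted p = 1.57e-11). Hif1a, the oxygen-regulated transcription factor, rose by 1.22 (SE 0.15, adjusted p = 4.73e-07) and 1.69 (SE 0.14, adjusted p = 2.58e-10), and Slc2a1, a glucose transporter, by 1.59 (SE 0.22, adjusted p = 1.80e-06) and 1.89 (SE 0.20, adjusted p = 3.05e-08). Ppargc1a, whose loss in mouse heart lowers VEGF and gives a peripartum cardiomyopathy, was picked after its values were seen. It fell to 59.1 CPM in S55L PP, against 123 CPM in WT PP (−1.06, SE 0.17, adjusted p = 2.23e-05), and to 77.1 CPM in S55L naive, against 117.1 CPM in WT naive (−0.60, SE 0.15, adjusted p = 0.00212). Epas1 and Egln1, also of this list and picked after their values were seen, fell in both comparisons. Epas1 fell by 0.79 in S55L PP (SE 0.16, adjusted p = 2.87e-04) and by 0.75 in S55L naive (SE 0.14, adjusted p = 9.96e-05). Egln1 fell by 1.16 (SE 0.17, adjusted p = 6.96e-06) and 0.93 (SE 0.15, adjusted p = 1.93e-05). Thus Hif1a and Slc2a1 transcripts were higher, and those of Epas1 and Egln1 lower, in the same S55L hearts in which Vegfa was lower. Scaled by total counts, 7 rose and 3 fell in each comparison. The median was then 0.065 after delivery, beside 0.27 over all genes, and −0.063 in naive mice, beside 0.24.

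**Figure D4:**
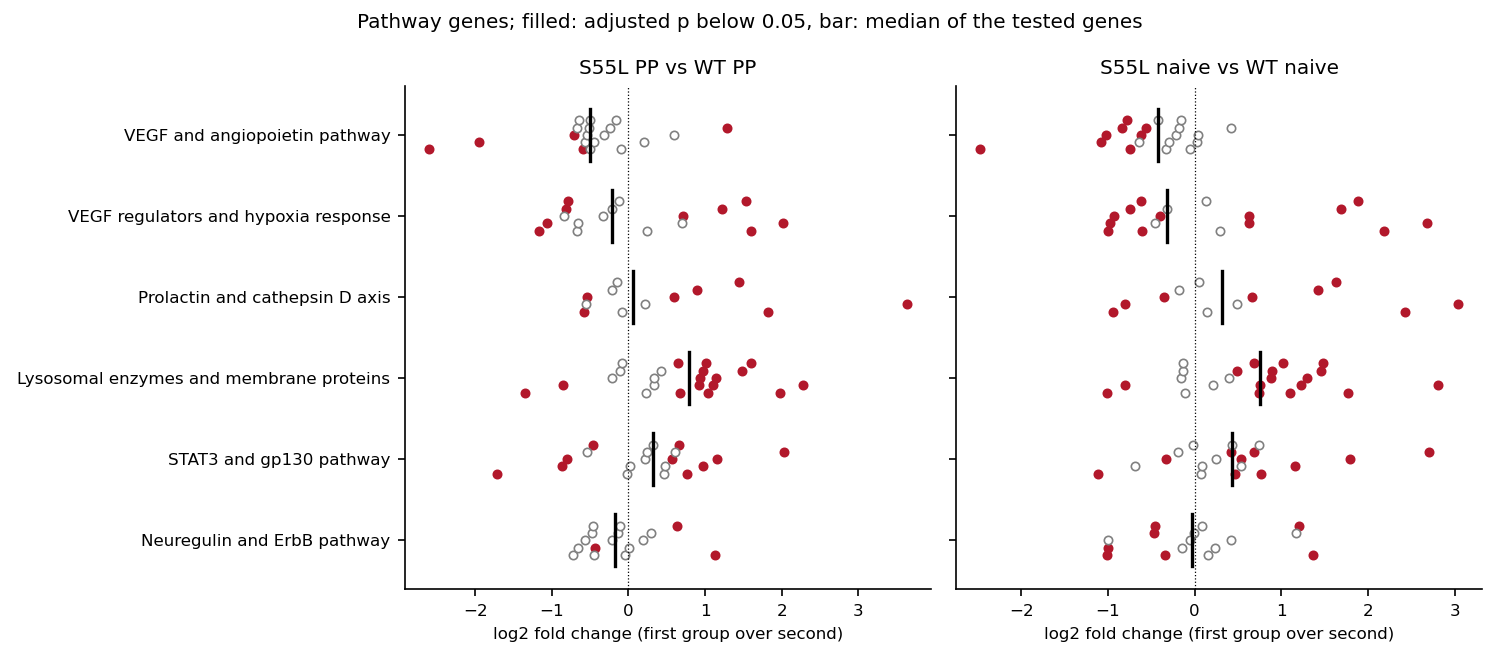
Log2 fold changes of the tested genes of 6 pathway lists in S55L PP against WT PP (left) and S55L naive against WT naive (right), 1 point per gene, filled where the adjusted p was under 0.05, with the median as a bar. Lysosomal genes lie mostly right of 0 (medians 0.80 and 0.75) and VEGF and angiopoietin genes mostly left (medians −0.50 and −0.42).

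Ctsd was 1 of many lysosomal genes that rose. The list of lysosomal enzymes and membrane proteins also holds the transcription factor genes Tfeb and Tfe3. Of its 22 tested genes, which leave out Ctsd, 13 rose and 2 fell in S55L PP (median 0.80). In S55L naive 14 rose and 2 fell (median 0.75). Ctss, a cathepsin of macrophages and other antigen-presenting cells, rose to 128 CPM in S55L PP, against 26.3 CPM in WT PP (2.28, SE 0.18, adjusted p = 1.86e-10), and to 129 CPM in S55L naive, against 18.2 CPM in WT naive (2.81, SE 0.17, adjusted p = 1.03e-12). Among the others was Ctsl, up by 1.04 in S55L PP (SE 0.17, adjusted p = 3.83e-05) and by 1.02 in S55L naive (SE 0.16, adjusted p = 8.34e-06). Ctsc was up by 1.23 in S55L naive (SE 0.18, adjusted p = 4.29e-06). Tfeb, which encodes the E-box factor named above and was picked after its values were seen, was 1 of the 2 that fell (−1.35 in S55L PP, SE 0.40, adjusted p = 0.0106, and −1.01 in S55L naive, SE 0.38, adjusted p = 0.0340). Macrophage markers moved with Ctsd: 10 of 12 rose in S55L PP and 12 of 12 in S55L naive, none fell, and none was at 0. They summed to 1459 to 2554 CPM in S55L PP and 1635 to 1997 CPM in S55L naive, against 432 to 546 CPM in WT PP and 309 to 382 CPM in WT naive. Other cell type lists moved in the same comparisons. Of 10 fibroblast markers 7 rose in S55L PP and 6 in S55L naive, and none fell. Of 10 smooth muscle and pericyte markers 5 fell and 1 rose in S55L PP, and 7 fell and 1 rose in S55L naive. Of 5 tested atrial cardiomyocyte markers 3 rose and 1 fell in S55L PP, and 4 rose and 1 fell in S55L naive. The part of these lists in the higher Ctsd, and in the lower vascular genes, was not tested.

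Of the genes around prolactin and its cleavage, 12 could be tested. In S55L PP 5 rose and 2 fell (median 0.062), and in S55L naive 5 rose and 3 fell (median 0.32). Cat, the catalase gene, rose by 1.82 in S55L PP (SE 0.16, adjusted p = 1.38e-09) and by 1.42 in S55L naive (SE 0.14, adjusted p = 8.84e-09). Sod2, the mitochondrial superoxide dismutase that is known to be lower in hearts without STAT3, fell by 0.53 in S55L PP (SE 0.13, adjusted p = 0.00245) and by 0.35 in S55L naive (SE 0.12, adjusted p = 0.0171). Stat5a, a transducer of prolactin receptor signals, fell by 0.58 in S55L PP (SE 0.18, adjusted p = 0.0157) and by 0.94 in S55L naive (SE 0.16, adjusted p = 3.59e-05).

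Genes of the gp130 and STAT3 pathway moved both ways, with 19 of 25 tested. In S55L PP 6 rose and 4 fell (median 0.33), and in S55L naive 8 rose and 2 fell (median 0.44). Scaled by total counts, 9 rose and 2 fell in S55L PP and 10 rose and 1 fell in S55L naive. Fewer passed with the column number of the well code as a term, a fit that cannot separate column from genotype. Il6st, which encodes gp130 itself, rose to 152 CPM in S55L PP, against 67.4 CPM in WT PP (1.16, SE 0.19, adjusted p = 2.83e-05), and to 165 CPM in S55L naive, against 73.9 CPM in WT naive (1.16, SE 0.17, adjusted p = 4.13e-06). Lifr, the partner of gp130 in the receptor for leukaemia inhibitory factor, fell (−0.87 and −1.12, SE 0.22 and 0.20, adjusted p = 0.00343 and 5.40e-05). Osmr, the oncostatin M receptor, rose by 0.76 in S55L PP (SE 0.22, adjusted p = 0.0107) and by 0.77 in S55L naive (SE 0.23, adjusted p = 0.00714). Il6ra, the interleukin-6 receptor, rose by 1.79 in S55L naive (SE 0.42, adjusted p = 0.00102). Socs3, a feedback inhibitor induced by STAT3, picked after its values were seen, had 8.33 CPM in S55L PP and 5.69 CPM in WT PP and did not pass (0.48, SE 0.43, adjusted p = 0.424).

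Of the neuregulin and ErbB pathway, 16 of 22 genes were tested, and 2 rose and 1 fell in S55L PP (median −0.18), while 2 rose and 5 fell in S55L naive (median −0.027). Of all tested genes, 16.3% rose and 15.2% fell in S55L PP, and 21.9% rose and 21.6% fell in S55L naive. Scaled by total counts, 3 rose and 0 fell in S55L PP (median 0.092 beside 0.27 over all genes) and 5 rose and 1 fell in S55L naive (median 0.22 beside 0.24), so that the split of called genes in naive mice depends on the scaling. Adam19, a protease that can shed neuregulins, rose by 1.13 in S55L PP (SE 0.21, adjusted p = 0.00012) and 1.37 in S55L naive (SE 0.19, adjusted p = 1.94e-06). Shc1, an adaptor of ErbB receptors, rose by 0.63 (SE 0.19, adjusted p = 0.0138) and 1.201 (SE 0.18, adjusted p = 7.31e-06). Pik3ca, a catalytic subunit of the PI3 kinase, fell by 0.44 in S55L PP (SE 0.15, adjusted p = 0.0249) and by 0.34 in S55L naive (SE 0.13, adjusted p = 0.0401). Hbegf, another ErbB ligand, fell in S55L naive (−1.005, SE 0.27, adjusted p = 0.00434). Erbb2, the partner of Erbb4, chosen after its values were seen, had 2.39 CPM in S55L PP and 3.20 CPM in WT PP and did not pass (adjusted p = 0.505). In naive mice it went the other way, with 2.58 CPM in S55L and 1.06 CPM in WT, and did not pass either (adjusted p = 0.104).

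None of the members passed the test between PP and naive mice in either genotype. This comparison spans pregnancy as well as delivery, and PP and naive mice were also defined by different ages (bred at 65 days and aged to 100 days), so it does not isolate delivery. In S55L PP against S55L naive 0 of 7 members were called, beside 0% of all genes, and in WT PP against WT naive 0 of 7, beside 0.0167% (2 genes). At an unadjusted p under 0.05 none of the 7 tested members passed in either comparison, while 747 (6.25%) and 756 (6.33%) of all genes did, and DESeq2 called 0 members and 18 and 12 of all genes. For Vegfa the difference was −0.0044 in S55L (95% interval −0.33 to 0.32) and 0.23 in WT (95% interval −0.09 to 0.56). For Ctsd it was −0.05 in S55L (95% interval −0.36 to 0.25) and −0.10 in WT (95% interval −0.40 to 0.21). For Flt1 it was −0.15 in S55L (95% interval −0.42 to 0.13) and −0.01 in WT (95% interval −0.29 to 0.27). The interval of Pgf was the widest, from −1.81 to 0.51 around −0.65 in WT. These intervals allow changes of the size given and do not show that a level stayed the same.

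Nrg1 was the member whose libraries did not overlap between S55L PP (1.56 to 2.92 CPM) and S55L naive (0.417 to 1.53 CPM), a pattern that 2.25% of all tested genes showed. With no filter on low counts the difference was 1.31 (SE 0.52), with an unadjusted p of 0.0124 and an adjusted p of 0.683 in the edgeR test. In WT, Nrg1 read 1.43 to 2.23 CPM in WT PP and 0.585 to 1.98 CPM in WT naive, which overlapped. These values rest on 34 reads in all of S55L PP and 20 reads in all of S55L naive.

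The size of the genotype difference was not shown to differ between PP and naive mice. The interaction of genotype and PP called 0 of 7 members, beside 0% of all genes, 0 members at an unadjusted p under 0.05 (444 of all genes, 3.72%) and 0 members by DESeq2 (1 of all genes). Its value, the difference in S55L minus that in WT, was −0.24 for Vegfa (95% interval −0.70 to 0.23), −0.14 for Flt1 (95% interval −0.53 to 0.25), 0.04 for Ctsd (95% interval −0.39 to 0.47) and 0.05 for Stat3 (95% interval −0.43 to 0.53).

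In the diet study the EH301 diet against the control diet called 0 of 6 tested members, beside 0% of 10335 tested genes, with 0 members and 137 of all genes (1.33%) at an unadjusted p under 0.05 and none of either by DESeq2. No member's libraries separated the diets, while 1.5% of all tested genes did. Vegfa read 61.6, 12.6, 19.1 and 14.5 CPM under EH301, against 11.1, 17.0, 16.3 and 12.0 CPM under the control diet. EH301 diet 7 stood above all others, and the remaining 3 overlapped the control libraries. The difference was 0.93 (SE 0.46, adjusted p = 0.9999), and without EH301 diet 7 it was 0.09. Vegfb read 381, 563, 414 and 409 CPM under EH301, against 503, 449.6, 403 and 449 CPM under the control diet (−0.03, SE 0.25). Flt1 read 138, 76.9, 117 and 118 CPM under EH301, against 118, 132, 109 and 107 CPM under the control diet (−0.04, SE 0.24). Both genes overlapped between the diets.

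**Figure D5:**
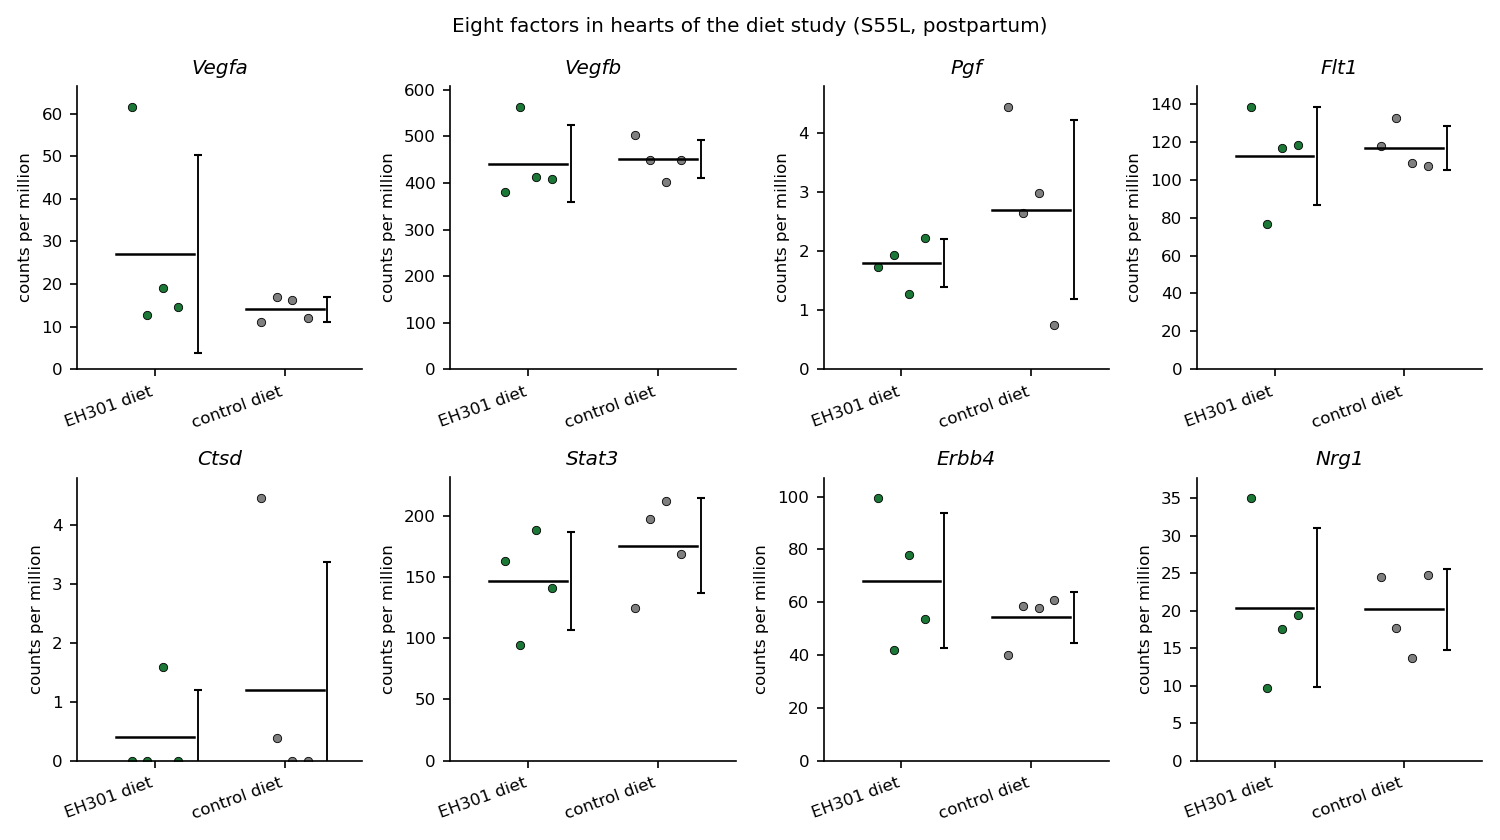
CPM of the 8 factors in each library of the diet study (points), with group mean (horizontal bar) and SD (vertical bar), n = 4 for EH301 and n = 4 for the control diet. Diets overlap for every factor, and Vegfa in EH301 diet 7 stands at 61.6 CPM above the other libraries of its group at 12.6 to 19.1 CPM.

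Stat3 read 163, 94.4, 189 and 141 CPM under EH301, against 125, 197, 212 and 169 CPM under the control diet (−0.26, SE 0.28). Erbb4 read 99.3, 41.8, 78.0 and 53.6 CPM under EH301, against 40.03, 58.5, 57.9 and 60.8 CPM under the control diet (0.32, SE 0.28). Nrg1 read 34.9, 9.73, 17.5 and 19.4 CPM under EH301, against 24.5, 17.7, 13.6 and 24.8 CPM under the control diet (0.12, SE 0.35). All 3 genes overlapped between the diets, and the adjusted p of all 6 tested members was 0.9999. Intervals were wider than in the postpartum study: that of Vegfa reached from −0.08 to 1.93 and that of Nrg1 from −0.64 to 0.87. Pgf, with 5, 2, 4 and 6 reads under EH301, against 2, 7, 9 and 2 reads under the control diet, did not pass the filter.

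Ctsd could not be read in the diet study. It had 0, 0, 5 and 0 reads under EH301, against 2, 1, 0 and 0 reads under the control diet, while S55L PP libraries of the postpartum study held 7749 to 11509 reads. It was 1 of 12 genes, among 254 that averaged at least 500 CPM in S55L PP, with at most 10 reads over all 8 diet libraries. For this count CPM were taken over the reads on genes without scaling between libraries. Chchd2, Ndufa13 and Atp5o, which encode widely used mitochondrial proteins, were others of these genes. The tables hold different numbers of genes (78258 and 56691), and the annotation behind each is not given in the sources used here. Levels are therefore not compared between them, and what left Ctsd with so few reads was not tested. The well codes separate the diets completely (column number 3 for EH301, 1 or 2 for the control diet), so well position and diet cannot be told apart, and 4 libraries a group with 1 control library of 466651 reads limit what could be detected.

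Genes with the pattern most like each member over the 18 libraries of the postpartum study were found by Pearson correlation of log2 CPM. Since the libraries fall into 2 genotypes, a correlation can come from the genotype alone, and the correlation of the deviations from the group means is therefore given after each value. Vegfa was most like Mcee (0.947, deviations 0.71) and Ldhb (0.944, deviations 0.618). Flt1 was most like Slc25a4 (0.942, deviations 0.711) and Sucla2 (0.922, deviations 0.563), and Ctsd most like Krt18 (0.988, deviations 0.744) and Gsta4 (0.982, deviations 0.727). Vegfb paired with Tsc22d1 (0.932, deviations 0.890) and Tmem50b (0.898, deviations 0.855). Stat3 paired with Sec61a1 (0.914, deviations 0.840) and Vasp (0.905, deviations 0.876). Erbb4 paired with Olfm1 (0.842, deviations 0.677) and Lrrc2 (0.833, deviations 0.733), and Pgf, at few reads, with Stag2 (0.787, deviations 0.759) and Inf2 (0.778, deviations 0.704).

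Among the members themselves, Vegfa and Ctsd had a correlation of −0.889 over the 18 libraries and of 0.0034 once the group means were removed. Vegfa and Flt1 had 0.809 and then 0.0963, and Flt1 and Ctsd had −0.866 and then −0.155. Within groups these members did not follow each other closely from library to library. The strongest correlation of deviations among the 21 pairs of tested members was −0.406, between Vegfb and Erbb4. The points share libraries and depth, and no p is given.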

How the data were processed

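Total RNA of mouse heart was made into Lexogen QuantSeq 3′ libraries, per the labels' protocols. The submitters' processing notes name Trimmomatic 0.39, STAR 2.7.0f, HTSeq 0.6.1, DESeq2 3.21 and GRCm39.p6. The authors deposited raw counts per gene in a table for each study. The annotation, strand setting and overlap mode of the counting are not given in the sources used here. Summary lines that name no gene were left out: reads on no gene took 5.65% to 10.1% in the postpartum study and 1.43% to 1.74% in the diet study, ambiguous reads 4.45% to 7.08% and 1.97% to 2.50%, and multi-mapped reads 17.5% to 27.3% and 35.2% to 39.1%. Symbols were matched by Ensembl ID from a GENCODE annotation of GRCm38 (51487 of 78258 and 52073 of 56691 genes).

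Every pair of columns was compared. WT PP 1 equals WT PP 2 and S55L PP 1 equals S55L PP 2 in every count, so each pair differed by less than sampling noise and was counted as 1 sample. Control diet 5 equals EH301 diet 6, and this column entered neither group. That left 18 and 8 libraries. The lowest chi-square per gene of any other pair was 2.16 and 4.94.

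The studies were fitted apart with edgeR 4.0.16 in R 4.3.3 (filterByExpr, TMM scaling, robust quasi-likelihood F test), with Benjamini-Hochberg adjustment over 11945 and 10335 genes. The SE is the log2 fold change over the root of F, and intervals are 95% intervals. Biological coefficients of variation were 0.199 and 0.299. CPM use TMM-scaled library sizes. On simulated data with 200 changed genes, the fit recovered 59.8% of genes changed by 1 and 98.0% of genes changed by 2 on the log2 scale in S55L naive against WT naive (11709 genes), and 13.4% and 91.8% in EH301 diet against control diet (10113 genes).

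Members and gene lists were chosen with earlier results of these data known. Named pathway genes are, per list and comparison, up to 3 called genes of lowest adjusted p; any other gene is marked in the text as picked with its values known. A few genes that this rule names are not reported here. For likeness, log2 CPM with a prior count of 2 was used over genes averaging at least 5 CPM. The main fits used no pairs, and the replicate numbers of the titles entered as a block in an alternative fit only. In S55L PP against WT PP the deviations of same-numbered libraries correlated at 0.119 to 0.333 in the 4 pairs. The highest values, 0.326 and 0.333, were those of numbers 1 and 5, whose libraries share a row of the well code. For number 1 the same counts were also deposited under another row. The labels do not pair the libraries, and differently numbered libraries were not compared. Alternatives covered scaling, filter, DESeq2 1.42.0, well codes, identical columns, thinning, the replicate block, the groups in the fit and each library left out. Promoter sequences are from RefSeq (GRCm38.p6).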

Additional observations from a re-analysis of the deposited data

Results flagged for a closer look

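Of 47 groups of libraries examined for 1 member each, 5 had a library far from the others of its group, and chance flags about 1 group in 20. Vegfa stood at 61.6 CPM in EH301 diet 7, against 12.6 to 19.1 CPM in the other EH301 libraries. Ctsd stood at 974 CPM in WT PP 5, against 736 to 762 CPM in the other WT PP libraries, which is still below every S55L library. Pgf stood at 1.75 CPM in WT naive 3, against 3.46 to 4.08 CPM in the other WT naive libraries, on 3 reads. Erbb4 stood at 40.03 CPM in control diet 1, the library of 466651 reads, against 57.9 to 60.8 CPM in the other control libraries. Ctsd stood at 1.59 CPM in EH301 diet 9, on 5 reads, against 0 in the other EH301 libraries. What sets these libraries apart was not tested.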

How the results depend on the processing

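Of 829 alternative values for 41 single-gene results, 736 kept direction and side of the threshold, 22 lost a call, 7 gained one and 64 changed sign. Vegfa and Ctsd kept their genotype calls in every alternative run, though the fit with the well code's column number as a term cannot test them. It rests on S55L PP 5 against WT PP 1 after delivery, and in naive mice column number and genotype go together. In S55L PP against WT PP, 3 members were called with only the compared groups in the fit. With 1 library left out 3 to 5 were called (3 without S55L PP 1). In S55L naive against WT naive 3 to 5 were called, and in the other comparisons 0 under every alternative run.

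Over all genes, the main fit called 5192 in S55L naive against WT naive and 3767 in S55L PP against WT PP. Fewer were called with the column term, a fit that cannot separate column from genotype. Total-count scaling split the calls into 4013 higher and 1481 lower in naive mice and 3458 and 977 after delivery, in place of 2614 and 2578 in naive mice and of 1816 lower among 3767 after delivery. Fewer macrophage and cardiomyocyte markers passed with the column term as well. Calls in WT PP against WT naive (2), S55L PP against S55L naive (0) and the interaction (0) were 21, 37 and 5 with no filter and 12, 18 and 1 with DESeq2. Vegfb in S55L PP against WT PP also lost its call with total counts (−0.18), no filter (−0.38) and only the compared groups (−0.46), and Stat3 with only the compared groups (0.51) and without libraries deposited in 2 columns (0.27). Erbb4 passed there with total counts (0.88), and Vegfb passed in S55L naive against WT naive without rows A and H (−0.41).

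Signs turned in uncalled differences. With the column term, Vegfb was 0.19 and Erbb4 −0.49 in S55L naive against WT naive, Vegfa 0.0352, Ctsd 0.11, Erbb4 0.15 and Stat3 −0.47 in S55L PP against S55L naive, and the interaction −1.96 for Pgf and −0.67 for Stat3. With total counts, Pgf was 0.0835 in S55L PP against WT PP, Flt1 0.0259 in WT PP against WT naive, and Vegfa 0.0629, Vegfb 0.018, Ctsd 0.0101 and Erbb4 0.0321 in S55L PP against S55L naive. With all deposited columns, Pgf was 0.0403 in S55L PP against WT PP, and Vegfa 0.0344, Erbb4 0.0109 and Pgf 0.0906 in S55L PP against S55L naive. Without rows A and H, chosen after seeing the data, Vegfa was −0.0158 and Flt1 0.00419 in WT PP against WT naive, and Vegfb 0.0946 and Pgf 0.00773 in S55L PP against S55L naive. Of the libraries left out there, WT PP 1 and S55L PP 1 were also deposited under row B. Without libraries deposited in 2 columns, also chosen after seeing the data, Vegfb was 0.0535 in S55L PP against S55L naive and the interaction of Stat3 −0.20. Flt1 in WT PP against WT naive was 0.00421 with DESeq2 size factors, 0.00622 with the DESeq2 test, 0.01998 with no filter, 0.0194 thinned, and 0.00339 with only the compared groups. Vegfa in S55L PP against S55L naive was 0.0146 with DESeq2 size factors, 0.0147 with the DESeq2 test, 0.0701 thinned and 0.00827 with only the compared groups. The interaction of Ctsd was −0.00385 with no filter, and Flt1 between diets was 0.0867 without libraries under 1200000 reads.

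Leaving out 1 library gave Pgf −0.42 to 0.32 in S55L PP against WT PP, Vegfb −0.00374 to 0.23 and Flt1 −0.0638 to 0.0604 in WT PP against WT naive, and in S55L PP against S55L naive Vegfa −0.0746 to 0.0671, Vegfb −0.099 to 0.0504, Ctsd −0.11 to 0.0474, Erbb4 −0.12 to 0.10, Stat3 −0.000575 to 0.30 and Pgf 0.24. It gave interactions of −0.0164 to 0.15 for Ctsd and −0.0944 to 0.21 for Stat3, and between diets Vegfb −0.18 to 0.0256, Flt1 −0.17 to 0.0828 and Nrg1 −0.28 to 0.29. The cause was not tested.

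With the replicate block, Flt1 was 0.00821 in WT PP against WT naive and Erbb4 0.0135 in S55L PP against S55L naive, and Erbb4 passed in S55L PP against WT PP (0.65). The block changed no other call of a member. Same-numbered libraries correlated at −0.102 to 0.0802 in S55L naive against WT naive, −0.0612 to 0.356 in WT PP against WT naive and −0.165 to 0.248 in S55L PP against S55L naive. These values do not settle whether the numbers pair the libraries, since differently numbered libraries were not compared. No paired analysis was possible because the diets share no replicate number. The column term was not run for the diets, which it separates completely. Pgf and Nrg1 are limited by depth, with 1 to 13 reads per postpartum-study library.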
